A study of Mus musculus with 12 samples.

Results

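Oxidative phosphorylation is the route by which mitochondria make most of the ATP of a kidney tubule. Complexes I and II take electrons from NADH and succinate, complex III passes them from ubiquinone to cytochrome c, complex IV hands them to oxygen, and complex V (ATP synthase) uses the proton gradient so formed to make ATP. The proximal tubule, which reabsorbs most of the filtered salt, glucose and phosphate, is known for its dense mitochondria and its reliance on this route. Most subunits of the complexes are encoded in the nucleus, and the remaining core subunits are encoded in mitochondrial DNA, whose genes were not analysed here. The genes described are the nuclear subunit genes whose symbols begin with Nduf followed by a, b, c, s or v and a digit, with Sdha to Sdhd, or with Uqcr, Cox4 to Cox8 or Atp5. The rule used names alone, and 81 of the 14091 genes in the table matched it: 34 of complex I, 4 of complex II, 8 of complex III, 18 of complex IV and 17 of complex V.

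Kidneys came from wild-type male C57BL/6 mice that were 10 weeks old when a 12-week diet began. The 4 groups were HFD + hIRI, ND + hIRI, HFD + sham and ND + sham, each with 3 mice and 1 library per mouse. HFD was a high fat, high sucrose diet and ND the control diet, hIRI was 60 min of hepatic ischemia by a clamp on the vessels of the left lateral and right median lobes, followed by reperfusion, and sham surgery was done without the clamp. Kidneys were taken 6 h after the ischemia. The clamp was on liver vessels alone, and bulk kidney RNA holds all cell types of the kidney together.

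The name rule carried some genes that are not fixed subunits, and they were kept in every count. Ndufa4 and its paralog Ndufa4l2 were placed with complex IV, where the Ndufa4 protein has been found. Atp5sl is now called Dmac2 and takes part in building the membrane arm of complex I, and Atp5s (now Dmac2l) is known as coupling factor B. Another 6 members (Cox4i2, Cox6a2, Cox6b2, Cox7a1, Cox8b and Ndufa4l2) are isoforms known from other tissues or from low oxygen. Without these 6 isoforms and the 2 genes that carry only the name, 73 genes remained. All 81 passed the filter on low counts. Cyc1, cytochrome c1 of complex III, was not matched by the name rule and was listed with the electron carriers below.

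Libraries held 20874584 to 29451344 counts in genes, and single members had 2 to 97188 counts per library. Marker genes of the kidney were present, with all 11 listed genes measured, among them Slc34a1 of the proximal tubule (group averages of 3501 to 4766 CPM, the count scaled by library size) and Umod of the thick limb (4184 to 4784 CPM). On the first principal component of all genes, which held 57.0% of the variance, HFD + hIRI replicate 1 stood apart at 87.1, against 16.8 and 39.2 in the other HFD + hIRI libraries. ND + hIRI replicate 1 lay at -22.3, among the sham libraries (-33.3 to -16.0) and away from the other ND + hIRI libraries (11.9 and 18.9). Results that rest on these libraries are given with and without them.

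The subunit genes were abundant. Together the 81 genes took 2.44% to 2.79% of all gene counts in each library. Levels between genes were compared as CPM per kilobase of exon, averaged over the 12 libraries. On that scale the 73 genes ran from 31.5 (Ndufa11, an accessory subunit of complex I) to 1760 (Atp5b, the catalytic beta subunit of ATP synthase), with a median of 294. Complex IV had the highest median, 690 over 12 genes, followed by 505 for complex III (8 genes), 395 for complex V (15 genes), 311 for complex II (4 genes) and 208 for complex I (34 genes). The medians are given as a description, since the genes of a complex share the libraries.

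Ndufb9, an accessory subunit, led complex I at 471 CPM per kilobase, and Sdha, the flavoprotein that oxidises succinate, led complex II at 372. Uqcrh, the hinge protein that meets cytochrome c1, led complex III at 653. Ndufa4 led complex IV at 1036 and came next after Atp5b among all members. Of the leading genes, those of complexes II and V were close in level between groups, while Uqcrh was not.

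Sdha had 1087, 1104 and 1096 CPM in HFD + hIRI kidneys, 1025, 1024 and 1116 CPM in ND + hIRI kidneys, 1028, 1046 and 1111 CPM in HFD + sham kidneys and 1016, 1066 and 1048 CPM in ND + sham kidneys. The groups overlapped. The log2 fold change of Sdha was 0.05 (SE 0.08, adjusted p = 0.679) for HFD + hIRI over ND + hIRI. Atp5b had 3941, 3470 and 3358 CPM in HFD + hIRI kidneys, against 3167, 3349 and 3374 CPM in ND + hIRI kidneys and 3188, 3190 and 3247 CPM in HFD + sham kidneys. HFD + hIRI replicate 1 was the highest library for Atp5b, and the log2 fold change was 0.12 (SE 0.09, adjusted p = 0.398) over ND + hIRI and 0.16 (SE 0.09, adjusted p = 0.208) over HFD + sham.

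Ndufb9 had 395, 320 and 355 CPM in HFD + hIRI kidneys, against 286, 281 and 284 CPM in ND + hIRI kidneys. The groups did not overlap, and the log2 fold change of 0.33 (SE 0.09, adjusted p = 0.0828) did not pass the test.

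**Figure D1:**
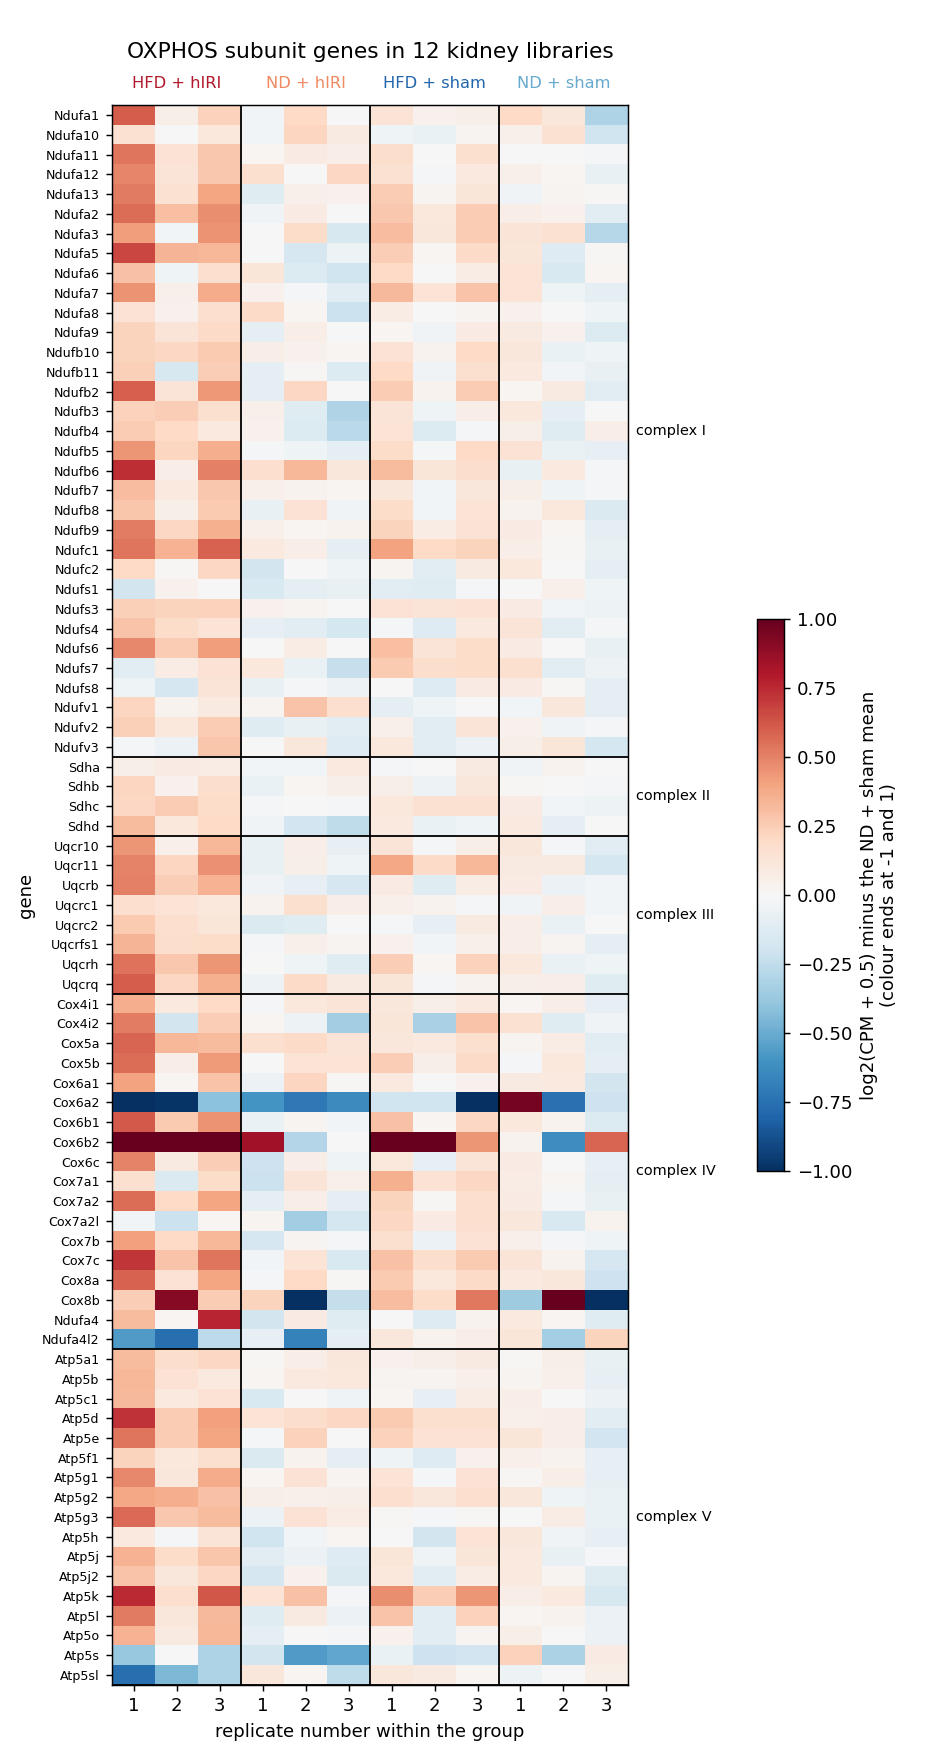
Each row is 1 of 80 of the 81 OXPHOS genes, grouped by complex, and each column 1 of the 12 libraries, in the groups HFD + hIRI, ND + hIRI, HFD + sham and ND + sham. Colour gives log2(CPM + 0.5) minus the mean of the 3 ND + sham libraries. Most rows are red in the 3 HFD + hIRI libraries, most strongly in replicates 1 and 3, while Cox6a2, Ndufa4l2 and Atp5sl are blue there.

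The comparison of HFD + hIRI with ND + hIRI asks how kidneys differed by diet after the same liver ischemia. It includes any diet difference present without ischemia, and a differing response to hIRI is tested by the interaction below. Subunit genes of complexes I and III were higher in HFD + hIRI kidneys: Ndufc1, Ndufa2, Uqcrb and Uqcrh rose by 0.43 to 0.48 on the log2 scale and no member fell. Past these 4 calls, the members as a group lay above 0. Their median log2 fold change was 0.27, against 0.0045 over all genes, and 76 of the 81 were positive. The test was edgeR's quasi-likelihood test fitted to all 12 libraries, with the Benjamini-Hochberg adjustment taken across the 14091 genes and a threshold of 0.05.

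By that test 4 of 81 members were higher and 0 lower, where 0.532% of all genes were higher and 0.816% lower. Before adjustment, a p under 0.05 was reached by 50 members on the higher side and 1 on the lower, against 14.9% of all genes higher and 12.2% lower. The HFD + hIRI libraries did not overlap the ND + hIRI libraries for 46 members on the higher side and 1 on the lower, where 12.2% and 11.5% of all genes did not overlap. Other short, abundant genes also lay on the higher side more often than all genes, as given below with gene length. Without HFD + hIRI replicate 3, 16 members were higher and 1 lower, beside 1473 higher and 1086 lower of the 14091 genes. Without any other 1 library 0 members were called, and the calls over all genes were 2 to 31 higher and 2 to 86 lower, against 75 and 115 with all libraries. The log2 fold changes of the 4 called members stayed between 0.37 and 0.55 in these 12 fits. Over all 28 alternative fits the call held in 9 for Uqcrb, 7 each for Ndufc1 and Uqcrh and 4 for Ndufa2. Here and below, the 28 include the fit without the low-count filter, which repeats the main fit because that filter removed no gene.

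The called genes of complex I are small accessory subunits. Ndufc1 (mm10, chromosome 3, 51405479 to 51408955, minus strand), a membrane-arm subunit, had 106, 92.5 and 109 CPM in HFD + hIRI kidneys, against 77.5, 75.8 and 67.9 CPM in ND + hIRI kidneys. Its groups did not overlap, and the log2 fold change was 0.47 (SE 0.10, adjusted p = 0.0463). Without ischemia Ndufc1 was at 95.9, 83.3 and 84.6 CPM in HFD + sham kidneys and 75.8, 73.2 and 68.8 CPM in ND + sham kidneys. Ndufa2 (chromosome 18, 36742332 to 36744587, minus strand), an accessory subunit of the matrix arm, had 162, 136 and 152 CPM in HFD + hIRI kidneys and 108, 116 and 110 CPM in ND + hIRI kidneys. Its log2 fold change was 0.43 (SE 0.09, adjusted p = 0.0493). Ndufa5, another matrix-arm subunit, had the largest log2 fold change of complex I, 0.53 (SE 0.12), and lay just outside the threshold (adjusted p = 0.0523).

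The called genes of complex III encode small subunits outside the redox centres. Uqcrb (chromosome 13, 66900621 to 66905350, minus strand), known as the ubiquinone-binding subunit, had 344, 288 and 309 CPM in HFD + hIRI kidneys, against 237, 230 and 217 CPM in ND + hIRI kidneys. All 3 HFD + hIRI libraries lay above the other 9 libraries, and the log2 fold change was 0.46 (SE 0.09, adjusted p = 0.0464). Uqcrh (chromosome 4, 116066965 to 116075070, minus strand) had 470, 387 and 438 CPM in HFD + hIRI kidneys and 320, 313 and 296 CPM in ND + hIRI kidneys, with a log2 fold change of 0.48 (SE 0.10, adjusted p = 0.0485). HFD + sham kidneys had 382, 326 and 378 CPM of Uqcrh, which overlapped neither the ND + hIRI libraries nor the HFD + hIRI libraries.

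The core proteins of complex III did not pass the test. Uqcrc1, a core protein, had 456, 446 and 438 CPM in HFD + hIRI kidneys and 415.1, 454 and 425 CPM in ND + hIRI kidneys, and the groups overlapped (log2 fold change 0.05, SE 0.08, adjusted p = 0.696). Uqcrc2, its partner core protein, had 650, 611 and 592 CPM in HFD + hIRI kidneys and 491, 498 and 544 CPM in ND + hIRI kidneys. Its groups did not overlap, and the log2 fold change was 0.27 (SE 0.09, adjusted p = 0.0945).

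**Figure D2:**
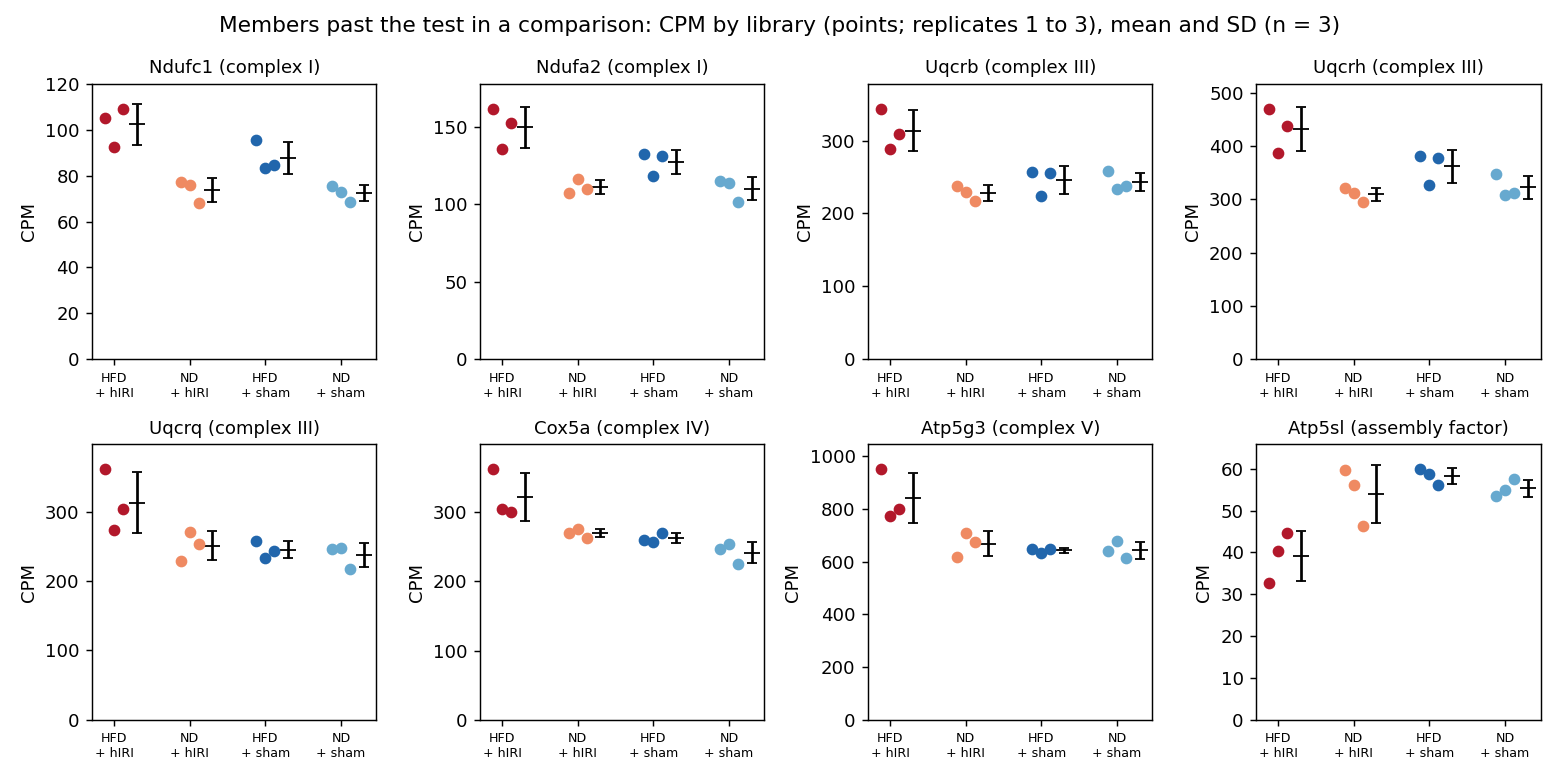
CPM of the 8 members past the test in at least 1 comparison, by library (points, replicates 1 to 3 from left to right within a group), with the mean and SD of each group (n = 3). Axes start at 0. The 3 HFD + hIRI points lie above all other points for 6 genes, overlap HFD + sham for Ndufc1, and lie below all other points for Atp5sl (32.6 to 44.6 CPM).

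Not all of complex I lay above the ND + hIRI level. Ndufv1, a core subunit that binds NADH, had 356, 314 and 325 CPM in HFD + hIRI kidneys and 312, 374 and 345 CPM in ND + hIRI kidneys. Its groups overlapped, with a log2 fold change of -0.05 (SE 0.10, adjusted p = 0.75).

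The other complexes leaned the same way with 0 calls by the main test in this comparison. In complex II, Sdhd, a membrane anchor, had 412, 354 and 379 CPM in HFD + hIRI kidneys, against 323, 290 and 276 CPM in ND + hIRI kidneys, and a log2 fold change of 0.37 (SE 0.10, adjusted p = 0.0736). In complex IV the median was 0.33, and Cox7c, a small membrane subunit, was at 328, 243 and 289 CPM in HFD + hIRI kidneys and 195, 219 and 179 CPM in ND + hIRI kidneys (log2 fold change 0.54, SE 0.12, adjusted p = 0.0603). Cox6b1, on the side facing cytochrome c, had a log2 fold change of 0.47 (SE 0.11, adjusted p = 0.0652). In complex V the median was 0.29, with 16 of 17 members positive. The exception was Atp5sl, at -0.47 (SE 0.12, adjusted p = 0.0743). Of 28 alternative fits, 3 each called Cox7c and Cox6b1, 2 called Sdhd and 4 called Atp5sl, and the others did not. No overlap was seen between the groups for 19 of 34 members of complex I, 2 of 4 of complex II, 6 of 8 of complex III, 8 of 18 of complex IV and 11 of 17 of complex V on the higher side.

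**Figure D3:**
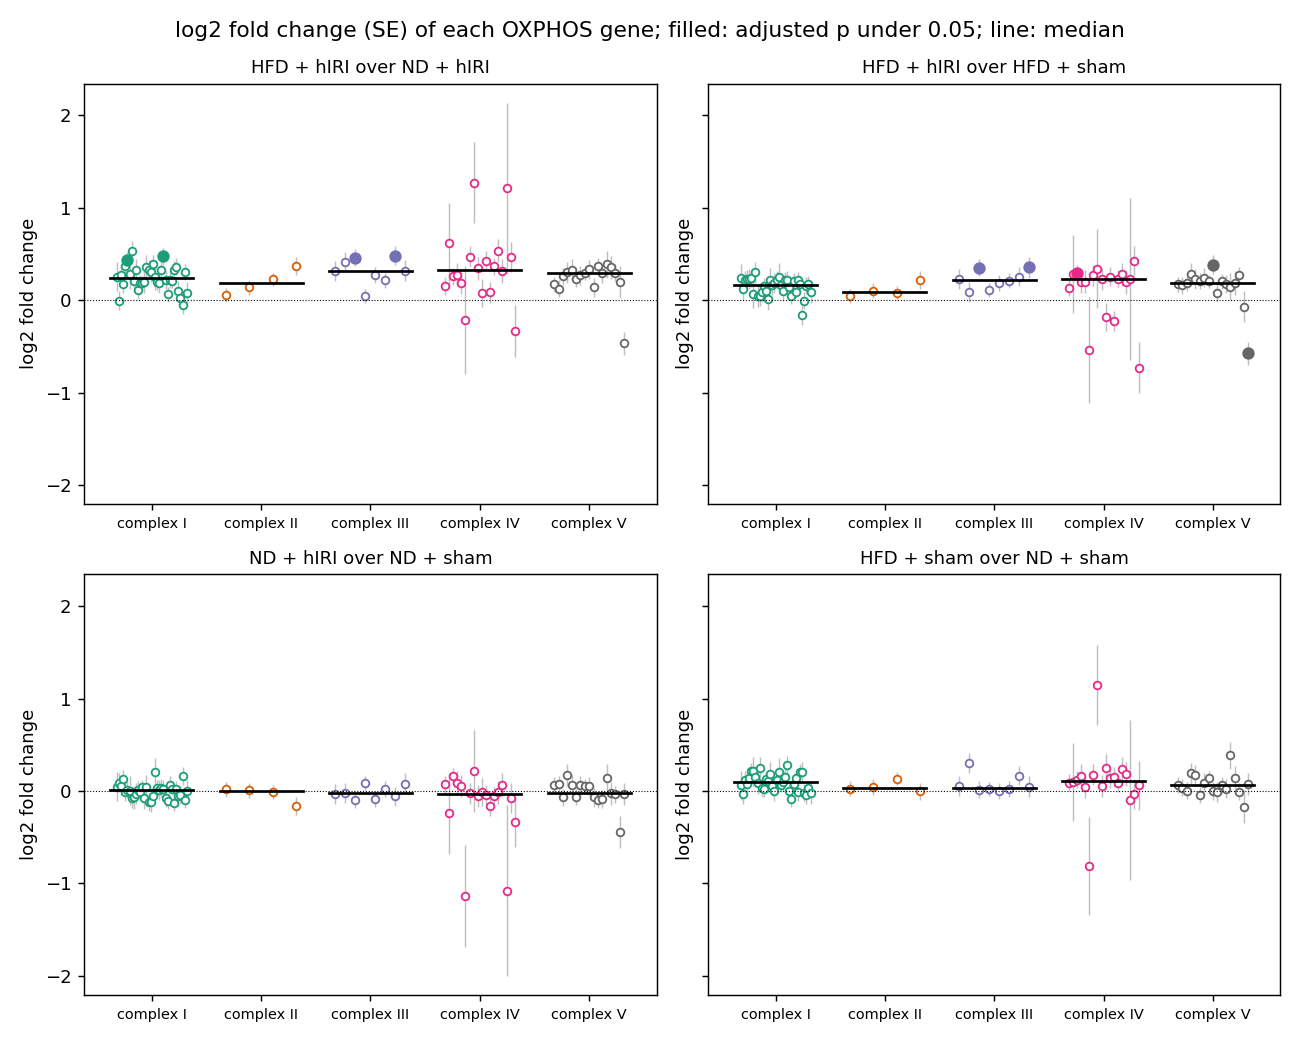
log2 fold change (points) with its SE (bars) of each OXPHOS gene by complex in 4 comparisons, with filled points for adjusted p under 0.05 and a line at each complex's median. HFD + hIRI over ND + hIRI has 4 filled points, HFD + hIRI over HFD + sham has 5, and the comparisons of ND + hIRI and of HFD + sham with ND + sham have none.

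The comparison of HFD + hIRI with HFD + sham asks what the liver ischemia changed within the high fat diet. Atp5g3, Uqcrb, Cox5a and Uqcrq rose by 0.29 to 0.39 on the log2 scale in HFD + hIRI kidneys, and Atp5sl fell by 0.57. The median over members was 0.19, against -0.0056 over all genes, and 73 of 81 were positive. The comparison shares the HFD + hIRI libraries with the one above, so the 2 are not independent.

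The members' share of calls was below that of the table as a whole. Of the 81 members, 4 were higher and 1 lower, where 11.4% of all genes were higher and 8.47% lower. Before adjustment, 24 members on the higher side and 2 on the lower had a p under 0.05, against 21.4% and 18.4% of all genes. HFD + hIRI libraries did not overlap HFD + sham libraries for 30 members on the higher side and 4 on the lower, beside 23.1% and 23.6% of all genes. With library totals alone in place of TMM scaling, 0 members were higher and 2 lower, beside 852 and 2112 of all genes, and the members' median was 0.0206. That scaling moved the median of all genes to -0.172 in this comparison and to -0.114 in HFD + hIRI over ND + hIRI. Without HFD + hIRI replicate 1, 0 members were higher and 1 was lower, beside 570 and 530 of all genes. Without any 1 of the HFD + sham libraries no member was called, and the calls over all genes dropped to 155 higher and 121 lower without replicate 1, 1 and 0 without replicate 2, and 22 and 23 without replicate 3, against 1607 and 1194 with all libraries. The highest counts of members came without HFD + hIRI replicate 2 (6 higher and 1 lower, beside 926 and 478 of all genes) and without replicate 3 (5 higher and 2 lower, beside 2615 and 2127). Leaving out ND + hIRI replicate 1 gave 3 higher, and leaving out any 1 of the other ND libraries gave 2. Over all 28 alternative fits the call held in 19 for Atp5g3, 18 for Uqcrb and 6 each for Cox5a and Uqcrq.

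Atp5g3 (chromosome 2, 73908447 to 73911326, minus strand), 1 of the genes for the c subunit of the ATP synthase rotor, had 950, 773 and 800 CPM in HFD + hIRI kidneys, against 648, 633 and 650 CPM in HFD + sham kidneys. All 3 HFD + hIRI libraries were above the other 9, and the log2 fold change was 0.39 (SE 0.10, adjusted p = 0.0271). Uqcrb had 257, 223 and 256 CPM in HFD + sham kidneys, and its log2 fold change was 0.35 (SE 0.09, adjusted p = 0.0302). Cox5a (chromosome 9, 57521232 to 57532426, plus strand), a structural subunit on the matrix side of complex IV, had 362, 304 and 300 CPM in HFD + hIRI kidneys and 260, 258 and 270 CPM in HFD + sham kidneys. The log2 fold change of Cox5a was 0.29 (SE 0.09, adjusted p = 0.0453). Uqcrq (chromosome 11, 53428948 to 53430831, minus strand), another small subunit of complex III, had 361, 274 and 304 CPM in HFD + hIRI kidneys and 258, 234 and 243 CPM in HFD + sham kidneys, with a log2 fold change of 0.35 (SE 0.11, adjusted p = 0.0486).

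Atp5sl (chromosome 7, 25619414 to 25625550, plus strand) was the only member called lower in any comparison. It had 32.6, 40.2 and 44.6 CPM in HFD + hIRI kidneys, against 59.8, 58.8 and 56.0 CPM in HFD + sham kidneys. The other groups overlapped the HFD + sham level, with 59.7, 56.1 and 46.3 CPM in ND + hIRI kidneys and 53.4, 55.0 and 57.5 CPM in ND + sham kidneys. The log2 fold change over HFD + sham was -0.57 (SE 0.12, adjusted p = 0.0193), and it kept its sign in all 28 alternative fits and its call in 22. The other 6 fits all called fewer genes over the whole table. Without HFD + sham replicate 1, 2 or 3 the log2 fold change of Atp5sl was -0.552, -0.565 and -0.622 (adjusted p = 0.0588, 0.0778 and 0.0625), and with only the 6 libraries compared it was -0.573 (adjusted p = 0.0512). Library names carry numbers that form a lower and a higher run. The value was -0.519 with that grouping as a covariate (adjusted p = 0.0845), where 12 genes of the table were higher and 6 lower, and -0.517 within the higher run, where 0 genes were called.

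The ND + hIRI comparison with ND + sham gave no member past the test. Of 81 members 0 were higher and 0 lower, as for all genes (0% in both directions). DESeq2 also called 0 members, beside 298 genes higher and 146 lower over the table. With no adjustment, p was under 0.05 for 0 members on the higher side and 1 on the lower, against 8.23% and 6.17% of all genes, and the median was -0.0069. That median had no steady sign, at -0.064 without ND + sham replicate 3 and 0.0273 without ND + sham replicate 1. The member with the smallest p was Atp5s, at 14.7, 11.2 and 11.5 CPM in ND + hIRI kidneys and 19.8, 13.4 and 17.8 CPM in ND + sham kidneys (log2 fold change -0.44, SE 0.17, adjusted p = 0.285). Of 28 alternative fits, only the one without both HFD + hIRI replicate 1 and ND + hIRI replicate 1 brought Atp5s under the threshold. Next came Cox6a2, at 0.951, 0.842 and 0.912 CPM in ND + hIRI kidneys and 3.77, 0.807 and 1.40 CPM in ND + sham kidneys, where ND + sham replicate 1 was the highest library (log2 fold change -1.14, SE 0.55, adjusted p = 0.376, and -0.29 without that library).

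Diet without ischemia also left 0 members past the test, with 0% of all genes higher and 0.0142% lower in HFD + sham than in ND + sham. DESeq2 called 0 members too, beside 64 genes higher and 68 lower. Unadjusted, 7 members passed 0.05 on the higher side and 0 on the lower, against 4.58% and 4.22% of all genes, with a median of 0.077 and 65 of 81 positive. The median was 0.0446 without HFD + sham replicate 1, 0.0487 without ND + sham replicate 3 and 0.0409 with the gene length trend removed. Ndufc1 had the smallest p (log2 fold change 0.28, SE 0.10, adjusted p = 0.438). Uqcr11, a small subunit of complex III, had 251, 218 and 241 CPM in HFD + sham kidneys and 203, 204 and 169 CPM in ND + sham kidneys (log2 fold change 0.30, SE 0.11, adjusted p = 0.457).

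Whether the response to hIRI differed by diet was tested directly as an interaction. No member passed (0 higher and 0 lower, beside 0.0071% of all genes in each direction), DESeq2 called 0 as well (22 genes of the table positive and 15 negative), and the smallest adjusted p among members was 0.486. Unadjusted, p was under 0.05 for 10 members with a positive and 1 with a negative difference, against 5.79% and 4.35% of all genes. The median over members was 0.16 and 75 of 81 were positive. Uqcrb was at 0.45 (SE 0.13, adjusted p = 0.486) and Atp5sl at -0.54 (SE 0.17, adjusted p = 0.486). A response of the subunit genes that differed between the diets was therefore not detectable gene by gene with 3 mice per group.

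The summed level of the members shows how far the scaling enters. On TMM-scaled library sizes the members summed to 30971, 26635 and 28676 CPM in HFD + hIRI kidneys, against 23691, 25224 and 24523 CPM in ND + hIRI kidneys, 25876, 24278 and 25942 CPM in HFD + sham kidneys and 25075, 24693 and 22969 CPM in ND + sham kidneys. The 3 HFD + hIRI libraries were above the other 9. As a plain share of counts, which uses no scaling factor, the members took 2.69%, 2.49% and 2.79% in HFD + hIRI kidneys, against 2.44%, 2.47% and 2.45% in ND + hIRI kidneys, 2.68%, 2.53% and 2.69% in HFD + sham kidneys and 2.53%, 2.55% and 2.49% in ND + sham kidneys. On the share of counts the HFD + hIRI libraries still lay above the ND + hIRI libraries, and they overlapped the HFD + sham libraries. The TMM factors of the HFD + hIRI libraries were 0.868, 0.933 and 0.972, below those of the other 9 libraries (0.981 to 1.08). TMM takes most genes as unchanged, and which scale fits these kidneys was not tested.

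Each complex gave the same order on the TMM scale except complexes I and IV. Complex III summed to 3473, 3005 and 3181 CPM in HFD + hIRI kidneys, against 2566, 2701 and 2625 CPM in ND + hIRI kidneys and 2854, 2627 and 2836 CPM in HFD + sham kidneys, with no overlap. Complex V summed to 12324, 10699 and 11030 CPM in HFD + hIRI kidneys, against 9447, 10127 and 10012 CPM in ND + hIRI kidneys and 9646 to 10169 CPM in HFD + sham kidneys. For complexes I and IV, HFD + hIRI replicate 2 (6213 and 4517 CPM) lay within the HFD + sham range (5760 to 6291 and 4192 to 4639 CPM) and above the ND + hIRI range (5671 to 5981 and 3965 to 4429 CPM). Complex II summed to 2201 to 2269 CPM in HFD + hIRI kidneys, above 1986 to 2071 CPM in ND + hIRI kidneys and 2053 to 2162 CPM in HFD + sham kidneys.

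**Figure D4:**
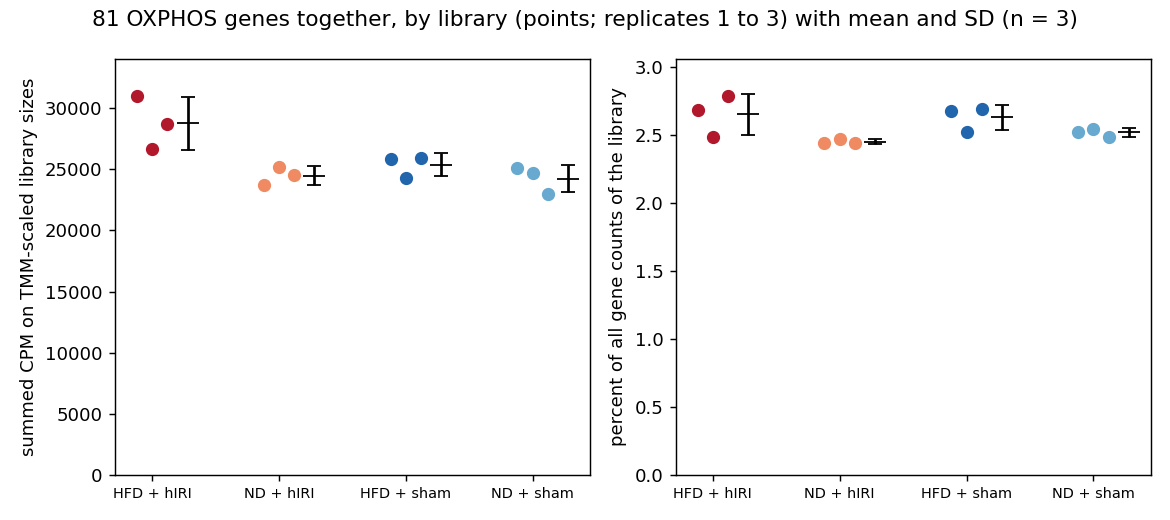
The 81 OXPHOS genes together in each library (points, replicates 1 to 3 from left to right within a group) with the mean and SD of each group (n = 3). The left panel gives the summed CPM on TMM-scaled library sizes and the right panel the percent of all gene counts. HFD + hIRI stands above all groups on the left (26635 to 30971 CPM) and overlaps HFD + sham on the right (2.49% to 2.79%, beside 2.53% to 2.69%).

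Gene length moved with the result. Members are short, with a median of 724 bases of exon against 2903 over all genes. In HFD + hIRI over ND + hIRI, the 54 members of up to 1000 bases had a median log2 fold change of 0.31 and held all 4 calls, and the 27 longer members had a median of 0.20. Other genes of up to 1000 bases with a mean of at least 20 CPM, 410 in number, had a median of 0.27, and 17 of them were higher and 2 lower. Unadjusted, 198 of the 410 were higher and 10 lower, and the groups did not overlap for 185 higher and 10 lower. Of the 48 members of that length and level, 36 were higher unadjusted and 29 did not overlap on the higher side, with 0 lower. For HFD + hIRI over HFD + sham the same 410 genes had a median of 0.18, against 0.21 for the short members and 0.16 for the longer ones. With each library's trend on gene length removed, the members' median was 0.099 over ND + hIRI with 0 calls (58 genes of the table higher and 100 lower), and 0.122 over HFD + sham with 2 higher and 1 lower (1852 and 1196 genes of the table). Its part in the members' levels was not tested beyond that fit.

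**Figure D5:**
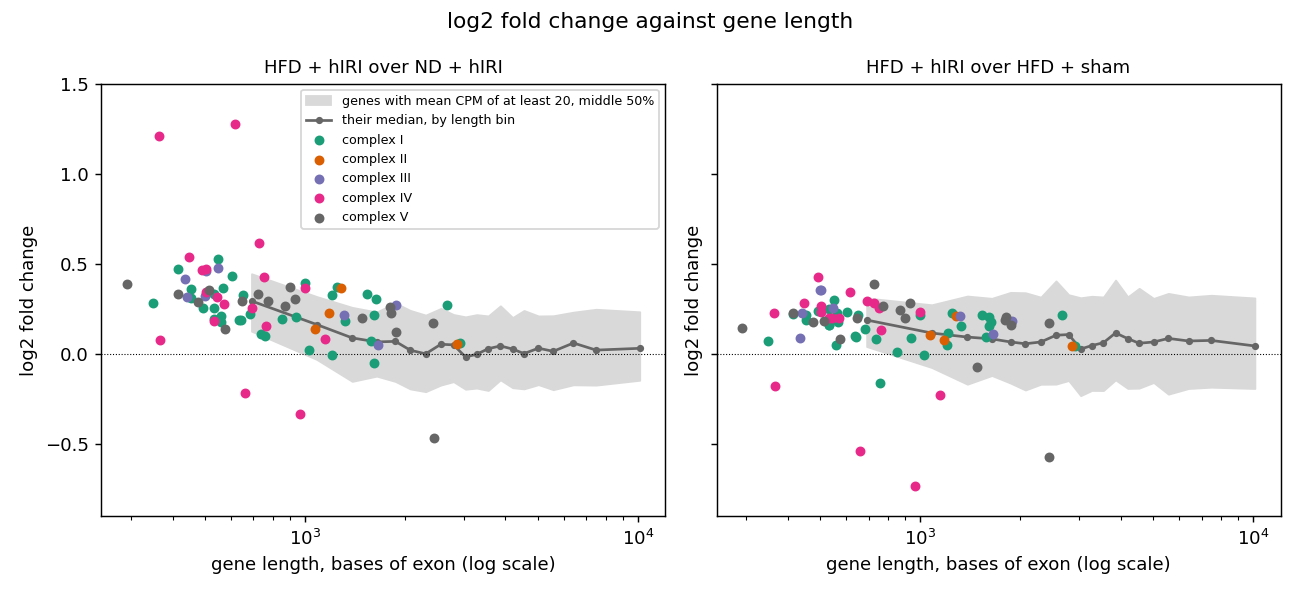
log2 fold change of each OXPHOS gene (coloured points, by complex) against its exon length on a log axis, for HFD + hIRI over ND + hIRI (left) and HFD + hIRI over HFD + sham (right). The grey line and band are the median and middle 50% of all genes with a mean of at least 20 CPM in bins of length. The shortest bin, with a median length of 690.5 bases, lies at 0.29 on the left and 0.19 on the right, close to most of the members.

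Isoforms known from other tissues stayed at low levels. Compared per kilobase, Cox4i2, known from lung and from low oxygen, was at 0.0418% to 0.114% of Cox4i1. Cox6a2 and Cox8b, the heart and skeletal muscle forms, were at 0.0938% to 0.775% of Cox6a1 and at 0.0317% to 1.20% of Cox8a. Cox7a1, also a muscle form, was at 4.17% to 4.74% of Cox7a2 in HFD + hIRI kidneys. Over the other libraries it was at 4.93% to 6.06%, and this ratio was not tested. Of 10 striated muscle markers 1 was in the table, Myh6, which had 0.306 to 0.507 CPM in HFD + hIRI kidneys and 0.137 to 1.16 CPM over the other libraries.

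Cox6b2, known as the testis form, had the largest log2 fold change over ND + hIRI among these isoforms. It had 8.88, 6.50 and 9.45 CPM in HFD + hIRI kidneys, 5.31, 2.15 and 2.74 CPM in ND + hIRI kidneys, 9.55, 6.04 and 3.92 CPM in HFD + sham kidneys and 2.84, 1.61 and 4.37 CPM in ND + sham kidneys. HFD + hIRI and ND + hIRI did not overlap, but the log2 fold change of 1.27 (SE 0.44, adjusted p = 0.108) did not pass the test. Ndufa4l2, a target of the hypoxia factor Hif1a, had 1.55, 1.30 and 2.03 CPM in HFD + hIRI kidneys, against 2.79, 2.61 and 2.68 CPM in HFD + sham kidneys, with 30 to 89 counts per library. Its log2 fold change of -0.73 (SE 0.28, adjusted p = 0.0754) did not pass either, and Ndufa4 had one of 0.43 (SE 0.16, adjusted p = 0.0752) in the same comparison. Ndufa4 had 598, 486 and 811 CPM in HFD + hIRI kidneys, with replicate 3 the highest of all 12 libraries, against 480, 438 and 490 CPM in HFD + sham kidneys, and its log2 fold change was 0.208 (adjusted p = 0.222) without that library and 0.586 (adjusted p = 0.0429) without replicate 2.

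Atp5g1, Atp5g2 and Atp5g3 encode the same mature c subunit, and the order of their levels was the same in every library. Per kilobase, Atp5g1 was at 24.5% to 29.7% and Atp5g2 at 14.0% to 17.6% of Atp5g3. Cox7a2l, a paralog of Cox7a2, had 132, 116 and 136 CPM in HFD + hIRI kidneys. HFD + sham kidneys had 156, 143 and 151 CPM of Cox7a2l. Those groups did not overlap, with a log2 fold change of -0.23 (SE 0.11, adjusted p = 0.157). The X-linked members, Ndufa1, Ndufb11 and Cox7b, gave log2 fold changes of 0.26, 0.20 and 0.37 over ND + hIRI, and none passed the test (adjusted p = 0.3, 0.293 and 0.0707).

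Several subunit genes have near-identical processed pseudogenes, and how reads that match more than 1 place were counted is not given in the sources used here. Counts of such members are uncertain by the reads their copies could take.

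Promoter sequence was read for the members because nuclear respiratory factor 1 (NRF1), the GA-binding protein (GABP), the estrogen-related receptors (ERR) and YY1 are known regulators of subunit genes. RefSeq windows on GRCm38.p6, from 250 bases before to 50 bases after each annotated start site, were found for 67 of the 81 members and 5 of the 8 called ones. The letters searched, on both strands, were GCGCATGC for NRF1, CCGGAAGT for GABP, TCAAGGTCA for ERR and AAGATGGCG for YY1. The NRF1 letters read on the opposite strand are GCATGCGC, so a run of both overlaps itself and was counted once per gene. At least 1 of the motifs stood in the windows of 24 members (35.8%), against 8.93% of the 27025 genes with a window. Those 27025 genes were not limited to genes measured in these kidneys, and shares among genes as abundant as the members were not taken. NRF1 letters were in 14.9% of the members and 3.05% of all genes, YY1 letters in 11.9% and 1.64%, GABP letters in 7.46% and 4.31%, and ERR letters in 2.99% and 0.466%. The YY1 letters hold an ATG, and whether a match fell on a start codon was not tested. A match is a description of the letters, and binding was not measured.

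Of the 5 called members with a window, 4 held a match, shown here because they carry the calls, together with Uqcr11, which held 2 kinds of match. Each line is 30 bases, 5′ to 3′ on the gene's strand, with the matched letters in capitals.
Ndufc1, YY1 (chr3:51408914-51408943, minus strand): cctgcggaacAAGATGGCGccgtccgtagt
Uqcrh, GABP on the opposite strand (chr4:116075063-116075092, minus strand): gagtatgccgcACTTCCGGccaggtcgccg
Atp5g3, ERR on the opposite strand (chr2:73911359-73911388, minus strand): tgttacaaagTGACCTTGAgcgtcttcccc
Atp5sl, YY1 (chr7:25619430-25619459, plus strand): gttacctggcAAGATGGCGgcgcccagagc
Uqcr11, GABP (chr10:80406869-80406898, minus strand): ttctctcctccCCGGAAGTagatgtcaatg
Uqcr11, NRF1 on the opposite strand (chr10:80406807-80406836, minus strand): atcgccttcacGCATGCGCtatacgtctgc
The ERR match of Atp5g3 begins 52 bases before the start site and the GABP match of Uqcrh 11 bases before it. The YY1 match of Ndufc1 begins 23 bases after the start site. Atp5sl has more than 1 annotated start site. Its YY1 match begins 27 bases after 1 of them and 53 bases before another. The YY1 letters occurred both in Ndufc1, which was higher in HFD + hIRI kidneys, and in Atp5sl, which was lower.

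The genes for the regulators were measured too. Of 24 regulators of subunit genes and mitochondrial DNA, 4 rose and 4 fell in HFD + hIRI over HFD + sham, where 11.4% of all genes were higher and 8.47% lower, with a median of -0.015. Counts this small in 24 genes are given as a description of the named genes. Pprc1, a coactivator related to PGC-1, rose by 1.33 (SE 0.31, adjusted p = 0.0212), Gabpb1, a subunit of GABP, by 0.98 (SE 0.27, adjusted p = 0.0320), and Slirp, which binds mitochondrial mRNA, by 0.39 (SE 0.10, adjusted p = 0.0247). Esrrb fell to 26.8 CPM in HFD + hIRI kidneys, against 63.1 CPM in HFD + sham kidneys, Tfb1m, a mitochondrial rRNA methyltransferase, fell to 3.23 CPM against 6.32 CPM, and Peo1, the mitochondrial DNA helicase, to 19.6 CPM against 31.0 CPM. In HFD + hIRI over ND + hIRI 0 of the 24 passed, and without adjustment 4 were higher and 5 lower, beside 14.9% and 12.2% of all genes.

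Related mitochondrial lists are given beside the same shares of all genes, 11.4% higher and 8.47% lower over HFD + sham and 0.532% and 0.816% over ND + hIRI. Unadjusted, 14.9% of all genes were higher and 12.2% lower over ND + hIRI. Differences between the lists were not tested. Of 50 assembly factors, which build the complexes without staying in them, 1 rose and 1 fell over HFD + sham, and the median was -0.12. Atp5sl (Dmac2), which also fell, was counted with the members under its older symbol and not in this list. Hccs, which attaches heme to cytochrome c, rose by 0.37 (adjusted p = 0.0223), and Bcs1l, which inserts the iron-sulfur protein into complex III, fell by 0.82 (adjusted p = 0.0498). Over ND + hIRI 0 of the 50 passed (5 higher and 2 lower unadjusted) and the median was -0.066. Of 19 TCA cycle enzymes, 4 rose over HFD + sham (median 0.15) and 1 over ND + hIRI (median 0.20), and none fell. Fh1, fumarate hydratase, averaged 661 ± 138 CPM in HFD + hIRI kidneys, against 270 ± 53.2 CPM in ND + hIRI kidneys and 243 ± 3.64 CPM in HFD + sham kidneys (SD, n = 3 each), a larger change than that of any member called. Of 20 genes for electron carriers and ubiquinone synthesis, 3 rose over HFD + sham, among them Cycs, the soluble carrier cytochrome c, by 0.64 (SE 0.14, adjusted p = 0.0198), and 0 passed over ND + hIRI (6 higher and 0 lower unadjusted, medians 0.13 and 0.11). Of 29 membrane and import genes, 4 rose over HFD + sham, among them the ADP/ATP carrier Slc25a5 by 0.44 (SE 0.11, adjusted p = 0.0262), and 0 passed over ND + hIRI (7 higher and 0 lower unadjusted, medians 0.11 and 0.16).

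Tubule and injury markers also shifted in HFD + hIRI kidneys. In HFD + hIRI replicates 1 to 3 the injury genes summed to 22049, 10326 and 5350 CPM. The members summed to 30971, 26635 and 28676 CPM there. In ND + hIRI replicates 1 to 3 the injury genes summed to 1258, 3730 and 5307 CPM and the members to 23691, 25224 and 24523 CPM. Among all genes, 11.4% rose and 8.47% fell over HFD + sham, and 0.532% and 0.816% over ND + hIRI. Of 18 proximal tubule genes, 2 fell over HFD + sham and 1 over ND + hIRI, with medians of -0.38 and -0.37. Their summed level was 31657 to 44198 CPM in HFD + hIRI kidneys, 47551 to 59052 CPM in ND + hIRI kidneys, 48142 to 51031 CPM in HFD + sham kidneys and 42656 to 59225 CPM in ND + sham kidneys. In the tubular injury list 10 of 14 genes rose relative to HFD + sham and 1, Sox9, relative to ND + hIRI (medians 3.28 and 1.41). Their summed level was 5350 to 22049 CPM in HFD + hIRI kidneys, 1258 to 5307 CPM in ND + hIRI kidneys, 1299 to 1628 CPM in HFD + sham kidneys and 1362 to 1440 CPM in ND + sham kidneys. Of 17 thick limb and distal nephron genes 1 rose and 4 fell over HFD + sham (median -0.20). Over ND + hIRI 0 passed (median -0.13). Unadjusted, 0 were higher and 5 lower there, beside 14.9% and 12.2% of all genes. In bulk kidney, fewer cells of a type and less RNA per cell cannot be told apart, and the part of these shifts in the subunit genes' levels was not tested.

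Markers of other tissues were low beside the members. Of 8 adrenal cortex markers 3 were in the table, led by Akr1b7, and they summed to 29.2 to 70.2 CPM in HFD + hIRI kidneys, 5.35 to 17.3 CPM in ND + hIRI kidneys, 5.06 to 6.33 CPM in HFD + sham kidneys and 3.38 to 3.56 CPM in ND + sham kidneys. Akr1b7 and Mc2r of these rose over HFD + sham, where 11.4% of all genes rose. The part of adrenal RNA in the members' levels was not tested. Of 9 fat markers 8 were in the table, led by Fabp4, and they summed to 129 to 202 CPM in HFD + hIRI kidneys, within the range of 94.3 to 261 CPM over the other libraries. Of 9 leukocyte markers 8 were in the table, led by Lyz2, and they summed to 73.1 to 202 CPM in HFD + hIRI kidneys, 50.6 to 122 CPM in ND + hIRI kidneys, 75.6 to 273 CPM in HFD + sham kidneys and 64.8 to 127 CPM in ND + sham kidneys. Of 9 hepatocyte markers 8 were in the table, led by Cyp2e1, which kidney also makes, and they summed to 1254 to 2504 CPM in HFD + hIRI kidneys, 1846 to 3387 CPM in ND + hIRI kidneys, 1486 to 2084 CPM in HFD + sham kidneys and 1599 to 2407 CPM in ND + sham kidneys. The albumin gene averaged 17.0 to 23.3 CPM across groups.

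The libraries that stand apart shifted the size of the result more than its direction. Without HFD + hIRI replicate 1 and ND + hIRI replicate 1 the members' median over ND + hIRI was 0.201 with 75 of 81 positive and 0 calls, and over HFD + sham it was 0.117 with 71 positive, 1 higher and 1 lower. Over all genes that fit called 28 higher and 63 lower over ND + hIRI and 1263 and 1134 over HFD + sham. The lower run of library numbers held 4 libraries and the higher run 8, and all 3 HFD + hIRI libraries were in the higher run. Within the 8 libraries of the higher run, the median was 0.257 over ND + hIRI (2 libraries) and 0.145 over HFD + sham (1 library). That fit called 0 of all genes in either comparison, so its calls say nothing of the members.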

How the data were processed

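RNA was sequenced from 12 kidneys, 1 library per mouse, in 4 groups of 3. Per the labels, the authors aligned paired-end reads to mm10 with STAR 2.7.10a and counted them per gene with featureCounts (Subread 2.0.3). The annotation, strand setting and low-count filter were not given in the sources used here. In the deposited table are raw counts of 14091 genes and exon lengths. It also holds the authors' fold changes, p-values and log2 CPM, which were not used.

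Counts were fitted over all 12 libraries with edgeR 4.0.16 (R 4.3.3), TMM scaling and robust quasi-likelihood tests, with Benjamini-Hochberg adjustment over 14091 genes and a threshold of 0.05. The filterByExpr filter removed no gene. The script was tested on simulated data. CPM use TMM-scaled library sizes, and log2 deviations a pseudocount of 0.5. Alternatives used limma 3.58.1, DESeq2 1.42.0, other scalings and filters, and fits leaving out libraries.

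Members and gene lists were chosen with earlier results of these data known. Values are given for the members past the threshold with the lowest p (4 or fewer in each direction), or for 2 where none passed, for the most abundant member of each complex, and for isoforms, paralogs and X-linked members. In other lists up to 3 genes per direction were eligible. Ndufa5, Ndufv1, Sdhd, Cox7c, Uqcrc1 and Uqcrc2 were chosen after their values were seen. Of the 81 members, 1 is not reported individually here. Promoter windows came from RefSeq (GRCm38.p6). Same-numbered libraries of ND + hIRI and ND + sham deviated together (r = 0.182, 0.245 and 0.211). No other 2 groups were over 0.1 for all 3 numbers, though HFD + sham with ND + sham had r = 0.166, 0.152 and 0.0797. The numbers were treated as a possible pairing of the first comparison alone, from the data and not from the labels. In both ND groups replicate 1 was of the lower run and replicates 2 and 3 of the higher, so pairing and run cannot be told apart there. Fits across genes with 3 mice per group measure the spread between these mice.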

Additional observations from a re-analysis of the deposited data

How the results depend on the processing

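The members' median log2 fold change stayed positive in HFD + hIRI over ND + hIRI (0.273), HFD + hIRI over HFD + sham (0.19) and the difference between diets (0.157) under every alternative run. With library totals alone these medians were 0.153, 0.0206 and 0.0399, and with voom sample quality weights 0.153, 0.096 and 0.071. With the gene length trend removed they were 0.0989 over ND + hIRI and 0.0577 for the difference, and with the replicate block added to it 0.0976, 0.111 and 0.0595. Upper quartile scaling gave 0.0765 over HFD + sham. Leaving out 1 library at a time gave 0.197 to 0.334 over ND + hIRI, 0.109 to 0.232 over HFD + sham and 0.0997 to 0.242 for the difference, with the lowest value of each without HFD + hIRI replicate 1.

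Counts of called members depended on the fit. Over ND + hIRI, 4 higher became 0 with upper quartile scaling, library totals, library number group as a covariate, length trend removed with or without the block, without both libraries that stand apart, within the higher run, and with only the 6 libraries compared. It became 1 with at least 10 counts in every library, 2 with limma voom, 12 with the likelihood ratio test and 28 with DESeq2, and 0 to 16 leaving out 1 library. The count lower, 0, became 1 with the likelihood ratio test, DESeq2 and voom with quality weights, and was 0 to 1 leaving out 1 library. Over HFD + sham, 4 higher became 0 with library totals, the covariate, the higher run and only the 6 libraries, 1 with upper quartile scaling, the length trend removed with the block, and without both libraries that stand apart, 2 with at least 10 counts, the likelihood ratio test and the length trend removed, 12 with DESeq2, and 0 to 6 leaving out 1 library. The count lower, 1, became 2 with library totals, 4 with voom quality weights and 0 with the covariate, the higher run and only the 6 libraries, and was 0 to 2 leaving out 1 library. In ND + hIRI over ND + sham, 1 member was lower without both libraries that stand apart (1295 and 1027 of all genes), against 0 otherwise. Over all genes, the fits over ND + hIRI called 75 higher and 115 lower as reported, 538 and 564 with the likelihood ratio test, 937 and 841 with DESeq2, 380 and 423 with voom quality weights, and 0 within the higher run and with only the 6 libraries. The other fits named, leaving out 1 library aside, called 28 to 58 higher and 36 to 152 lower. Over HFD + sham they called 1607 and 1194 as reported, 2364 and 1858 with DESeq2, 2974 and 2862 with voom quality weights, 12 and 6 with the covariate, 433 and 403 with only the 6 libraries, 0 within the higher run, and 852 to 1852 higher and 780 to 2112 lower in the others. Dropping both libraries that stand apart and keeping the higher run were chosen after seeing the data, and the causes of these shifts were not tested.

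Of 18 same-numbered pairs of libraries, 6 had correlated deviations over 0.1 and 3 under -0.1 (-0.432 to 0.245). All 3 pairs of ND + hIRI with ND + sham were over 0.1, and there the block left 0 members and 0 genes called, as without it. In no other comparison were all 3 pairs over 0.1. With the replicate block, 3 members were higher over ND + hIRI and 3 higher and 1 lower over HFD + sham.

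The log2 fold change of Atp5b over HFD + sham was -0.00954 with library totals, and that of Sdha over ND + hIRI was -0.00484 with upper quartile scaling and -0.0635 with library totals. With library totals and upper quartile scaling Uqcrc1 over ND + hIRI was at -0.069 and -0.0109. Over ND + hIRI, Ndufa1 was at -0.0221 with the length trend removed and -0.0218 with the block added, Ndufb11 at -0.0023 with voom quality weights, and Ndufv1 at -0.116 to 0.0145 leaving out 1 library.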
